A study of Mus musculus with 6 samples.

Results

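The matrix metalloproteinases (MMPs), the ADAMTS proteases and their tissue inhibitors (TIMPs) were followed in fat from WT mice and from mice without cavin-3. The members are all genes whose symbol is Mmp, Timp or Adamts with a number and at most 1 letter. Of 46 such genes in the mouse RefSeq table, 44 had a probe set annotated with their symbol alone, out of 19937 genes measured on the array: 22 MMPs, 18 ADAMTS proteases and 4 TIMPs. Mmp15 and Adamts2 were not analysed here. Each gene is given by its probe set with the highest mean, and the values are log2 of the deposited intensity on an Affymetrix Mouse Gene 1.0 ST array, which reads each gene with many short probes along its exons.

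The mice were litter mates of 2 genotypes, 3 WT and 3 KO, each 10 weeks old, kept on standard chow and fasted for 6 hours. In the KO allele a lacZ/neo fusion cassette replaces the full-length cavin-3 (Prkcdbp) gene, and the Boston colony that was analysed descends from a single ES cell clone of C57BL/6N origin. The depot of the fat is not given, and the methods state that male animals were used. Each sample is whole tissue, in which fewer cells of a type and less RNA per cell cannot be told apart.

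MMPs and ADAMTS proteases are zinc-dependent enzymes that cut the proteins of the extracellular matrix. They are made as inactive precursors, and the TIMPs bind their active sites and block them. In fat, where each adipocyte is wrapped in collagenous matrix, the balance between proteases and inhibitors is known for its part in the growth of adipocytes and of blood vessels. Among the MMPs, gelatinases cut basement membrane collagen, collagenases cut fibrillar collagen, stromelysins have broad substrates, and membrane-type MMPs act at the cell surface. Among the ADAMTS enzymes are proteases of the large proteoglycans, of procollagen ends, of von Willebrand factor and of the microfibril-associated matrix.

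Cavin-3, the targeted gene, had a log2 signal of 10.05 to 10.90 in WT and 6.78 to 7.12 in KO. Xist, the RNA of the inactive X chromosome, reached 11.15 in WT replicate 2 and 11.34 in KO replicate 3, against 3.70 to 6.30 elsewhere. Uty, a Y-linked gene, was low where Xist was high, at 3.36 and 3.21 against 7.89 to 8.14. These 2 arrays therefore go against the sex stated in the methods, and results are also given without them. Each array was closest, over all probe sets, to an array of the other genotype: WT replicate 1 to KO replicate 2, WT replicate 2 to KO replicate 3, and WT replicate 3 to KO replicate 1. The 9 measured adipocyte markers, of 10 listed, had a mean log2 signal of 12.00 to 12.17 in WT and 12.11 to 12.20 in KO.

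Signals above a yardstick for background were seen for all 4 TIMPs, most ADAMTS genes and a minority of MMP genes. With no measure of background on each array, 1203 olfactory and vomeronasal receptor genes, which fat hardly transcribes, served as a yardstick. The 95th percentile of their log2 signals lay between 5.05 and 5.29 on the 6 arrays. On every array 4 of 4 TIMPs, 15 of 18 ADAMTS genes and 9 of 22 MMPs lay above it, 28 of 44 members or 63.6%, against 67.7% of all genes. A further 7 members passed it on some arrays and 9 on none. Cavin-3 also lay above it on every KO array, at 6.78 to 7.12, although the KO allele lacks the full-length gene. A signal above the yardstick therefore does not by itself show transcription. Signals of different probe sets also depend on their probes, so no order of levels between genes is drawn.

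**Figure D1:**
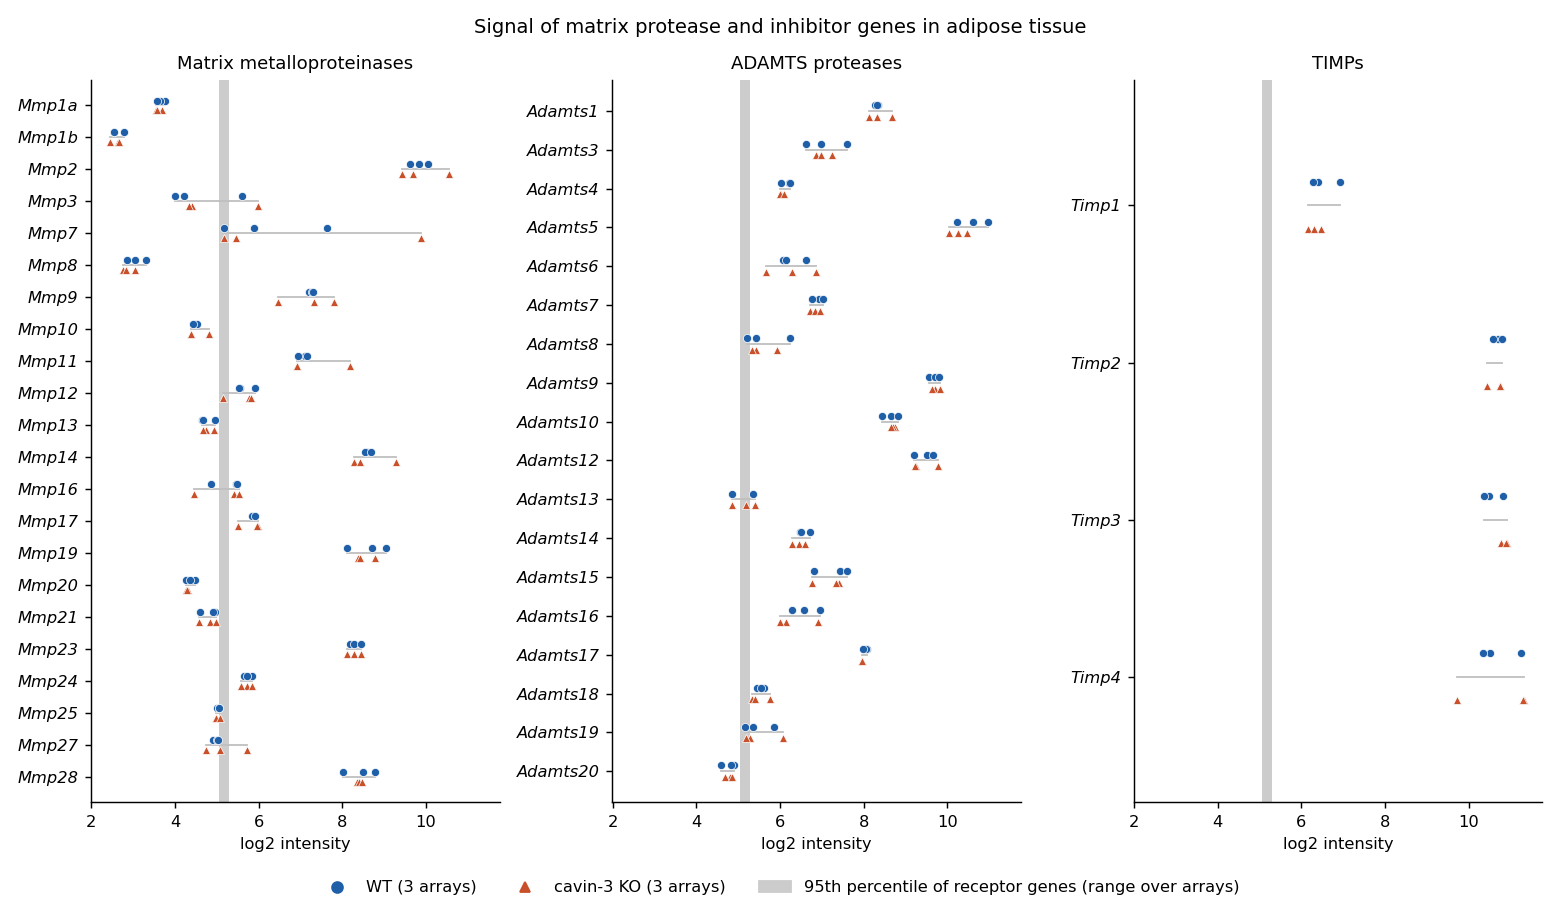
Log2 intensity (x axis) of the 44 members on 3 WT arrays (circles) and 3 KO arrays (triangles), with a grey line over the range of each gene and a grey band for the yardstick of 5.05 to 5.29. All TIMPs lie to the right of the band, and WT and KO points interleave for all members but Adamts17.

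Among the TIMPs, Timp3, which is held in the matrix and also inhibits ADAM and ADAMTS enzymes, had log2 signals of 10.48, 10.36 and 10.82 in WT and of 10.78, 10.92 and 10.90 in KO. The highest WT array exceeded the lowest KO array, so the groups overlapped. KO fat held 1.24-fold the WT level (95% interval 0.986 to 1.56), with an unadjusted p of 0.0616 and an adjusted p of 1.0 in limma, and this was the smallest unadjusted p among the 44 members. The log2 difference was 0.31 with all arrays, 0.21 to 0.45 without any 1 array, and 0.20 without WT replicate 2 and KO replicate 3.

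Timp4, a TIMP known from heart and fat, varied most among the inhibitors, by 3.04-fold between arrays. It was at 10.51, 10.33 and 11.25 in WT and at 11.32, 11.29 and 9.71 in KO. The 2 lowest arrays were WT replicate 2 and KO replicate 3 for Timp4, and its difference was 0.08 (95% interval -1.08 to 1.24, adjusted p = 1.0 from limma). It was 0.43 without these 2 arrays and 0.61 without KO replicate 3.

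Timp2, which inhibits MMPs and also takes part in the activation of the gelatinase precursor proMMP-2, was among the steadier members, at 10.71, 10.57 and 10.80 in WT and 10.44, 10.74 and 10.75 in KO. KO against WT came to 0.968-fold (95% interval 0.790 to 1.18). Timp1, the inducible inhibitor, was at 6.40, 6.91 and 6.29 in WT and 6.16, 6.48 and 6.29 in KO, or 0.857-fold (0.630 to 1.17). WT replicate 2 was the highest array for Timp1, and without that array the log2 difference went from -0.22 to -0.03.

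The MMP genes above the yardstick on every array were the gelatinases Mmp2 and Mmp9, the stromelysin Mmp11, the membrane-type Mmp14, Mmp17 and Mmp24, and Mmp19, Mmp23 and Mmp28. Mmp2 was at 9.62, 10.04 and 9.83 in WT and at 9.43, 9.69 and 10.56 in KO. Mmp14, whose product activates proMMP-2 at the cell surface, was at 8.60, 8.54 and 8.69 in WT and at 8.28, 8.42 and 9.28 in KO. For both genes the highest and the lowest of the 6 arrays were KO arrays, KO replicate 3 and KO replicate 1.

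Mmp11, a stromelysin activated inside the cell by furin, was at 7.10, 6.95 and 7.16 in WT and at 6.92, 6.92 and 8.18 in KO. Mmp9 was at 7.20, 7.27 and 7.30 in WT and at 6.46, 7.33 and 7.80 in KO. The WT arrays of Mmp9, Mmp11 and Mmp14 lay within 0.10, 0.22 and 0.15 of each other, while the KO arrays spanned 1.35, 1.26 and 0.998. Mmp19 and Mmp28 went the other way, with ranges of 0.94 and 0.76 in WT and of 0.42 and 0.12 in KO. Over all 44 members the median range was 0.34 within WT and 0.42 within KO. The KO minus WT differences were 0.06 for Mmp2, -0.06 for Mmp9, 0.27 for Mmp11 and 0.05 for Mmp14, and limma gave all 4 an adjusted p of 1.0. Without KO replicate 3, Mmp2, Mmp11 and Mmp14 were lower in KO, at -0.27, -0.15 and -0.26, and without KO replicate 1 Mmp9 turned to 0.31. The mean of the 9 measured fibroblast and adipose progenitor markers was 9.78 in KO replicate 1, 9.93 in KO replicate 2 and 10.35 in KO replicate 3, against 9.85 to 10.15 in WT. Their part in the MMP values was not tested.

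Neighbouring MMP genes on 1 chromosome behaved differently. In the order of the mouse RefSeq annotation the 10 are Mmp13, Mmp12, Mmp1b, Mmp3, Mmp1a, Mmp10, Mmp8, Mmp27, Mmp20 and Mmp7 on chromosome 9. This cluster holds all 4 measured genes listed here as collagenases, and these lay below the yardstick on every array, as did Mmp10 and Mmp20. None of the 10 passed it on every array.

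Clustered MMP genes are known for a proximal site of the AP-1 transcription factor, with the letters TGANTCA, followed by a TATA box, TATAAA. Both were searched on both strands of the 250 bases before each annotated start (RefSeq, GRCm38.p6), and matches of the 2 motifs do not overlap in the sequences printed. Of 32851 such windows in the genome, 6.75% held the AP-1 letters and 12.4% the TATA letters. Of the 44 members 30 had a window, and 8 had an AP-1 match, all 8 of them among the 10 genes of the cluster. TATA matches stood in 7 of the 10. The windows of Mmp3, Mmp10 and Mmp7 are shown because all 3 carry both motifs (in capitals) while their signals differ, Mmp10 being at or below 4.80 on every array and Mmp3 and Mmp7 rising on different arrays. The windows are chr9:7445572-7445821 for Mmp3, chr9:7502092-7502341 for Mmp10 and chr9:7691840-7692089 for Mmp7, each on the plus strand and written 5′ to 3′ up to the base before the start.
Mmp3: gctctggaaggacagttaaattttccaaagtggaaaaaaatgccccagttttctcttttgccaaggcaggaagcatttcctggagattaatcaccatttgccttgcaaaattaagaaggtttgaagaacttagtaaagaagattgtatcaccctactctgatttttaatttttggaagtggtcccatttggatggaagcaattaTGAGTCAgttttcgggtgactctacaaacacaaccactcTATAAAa
Mmp10: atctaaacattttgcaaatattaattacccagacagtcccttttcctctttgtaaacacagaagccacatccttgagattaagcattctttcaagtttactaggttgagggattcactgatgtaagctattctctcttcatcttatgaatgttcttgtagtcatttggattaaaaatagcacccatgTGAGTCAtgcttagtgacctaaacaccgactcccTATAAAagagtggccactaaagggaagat
Mmp7: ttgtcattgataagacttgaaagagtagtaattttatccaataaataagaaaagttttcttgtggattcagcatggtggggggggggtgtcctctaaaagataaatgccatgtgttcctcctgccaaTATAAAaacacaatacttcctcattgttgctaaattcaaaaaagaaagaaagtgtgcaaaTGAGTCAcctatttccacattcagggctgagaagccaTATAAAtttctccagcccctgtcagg
The AP-1 match begins 46 bases before the start of Mmp3 and 63 bases before the starts of Mmp10 and of Mmp7. A match is a description of letters and does not show that the factor is bound.

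Mmp7, or matrilysin, a small MMP made mainly by glandular epithelia, had the widest range of all members. It was at 5.88, 5.16 and 7.64 in WT and at 9.89, 5.18 and 5.45 in KO, a range of 26.5-fold. It was high in KO replicate 1 and intermediate in WT replicate 3. In WT replicate 1, at 5.88, it was above the yardstick of 5.06 of that array, and on the rest it was near the yardstick. The study lists Mmp7 among the up-regulated genes of these same arrays, so its values here are not independent evidence. The ratio of KO to WT was 1.53-fold, bounded only by 0.161 and 14.5 (95% interval, adjusted p = 1.0 from limma), and the log2 difference of 0.61 became -0.92 without KO replicate 1 and 1.32 without WT replicate 3. On linear intensities the log2 of the ratio of the group means was 1.81.

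Mmp3, stromelysin-1, was above the yardstick on 2 arrays, WT replicate 2 and KO replicate 3. Its log2 signals were 4.0, 5.59 and 4.22 in WT and 4.40, 4.33 and 5.99 in KO. The 2 raised arrays are those with high Xist. The difference was 0.30 (95% interval -1.11 to 1.72), and -0.24 without KO replicate 3. Mmp27 passed the yardstick only in KO replicate 3, at 5.73 against 4.73 to 5.06 on the other arrays. Mmp16, a membrane-type MMP, was at 5.45, 5.49 and 4.87 in WT and 4.46, 5.40 and 5.52 in KO. Mmp12, the macrophage elastase, was at 5.56, 5.54 and 5.90 in WT and 5.78, 5.82 and 5.14 in KO, and the 10 measured macrophage markers had a mean of 8.09 to 8.52 in WT and 8.02 to 8.38 in KO. The neutrophil collagenase gene Mmp8 was at 2.76 to 3.29 on all 6 arrays.

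**Figure D2:**
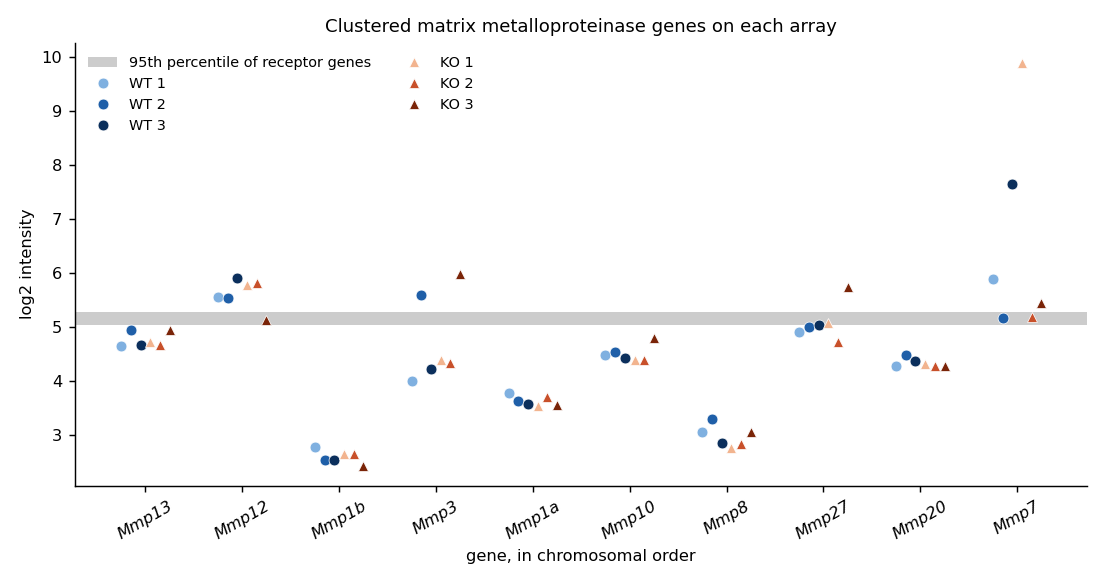
Log2 intensity (y axis) of the 10 clustered MMP genes in chromosomal order (x axis), with 1 point per array (WT circles, KO triangles, shades for replicates) and a grey band for the yardstick of 5.05 to 5.29. Mmp3 is raised in WT 2 and KO 3, Mmp7 in KO 1 and WT 3, and the other genes stay below 6 on all arrays.

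Most ADAMTS genes passed the yardstick. The proteoglycan-cutting members Adamts1, Adamts4, Adamts5, Adamts9 and Adamts15 lay above the yardstick on every array, as did the procollagen N-proteinases Adamts3 and Adamts14, Adamts7 and Adamts12, which cut cartilage oligomeric matrix protein, and Adamts6, Adamts10, Adamts16, Adamts17, Adamts18 and Adamts19. Adamts13, the protease of von Willebrand factor, passed it on 4 arrays, Adamts8 on 5 and Adamts20 on none.

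Adamts5, a main aggrecanase, was at 10.23, 10.97 and 10.61 in WT and at 10.47, 10.26 and 10.03 in KO. The groups overlapped, with WT replicate 1 below KO replicates 1 and 2. Its ratio of KO to WT was 0.783 (95% interval 0.549 to 1.12, limma adjusted p = 1.0), the lowest fold of the 44 members. The log2 difference of -0.35 depended on the arrays kept: it was -0.54 when WT replicate 1 was dropped, -0.17 when WT replicate 2 was, and -0.06 when KO replicate 3 went as well. Adamts1, which cuts versican and aggrecan, was at 8.34, 8.27 and 8.31 in WT and 8.69, 8.33 and 8.13 in KO, a difference of 0.07. Adamts9 had 6 probe sets, with differences of -0.15 to 0.10 between genotypes. In 1 probe set that was not used the groups did not overlap, with a difference of -0.15. It was at 9.17, 9.25 and 9.27 in WT and at 9.13, 9.02 and 9.09 in KO.

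Adamts17, which like Adamts10 acts on fibrillin microfibrils, was by the probe sets used the 1 member whose groups did not overlap. It was at 8.09, 8.05 and 7.98 in WT and at 7.96, 7.95 and 7.95 in KO, a difference of -0.08 (95% interval -0.27 to 0.10, adjusted p = 1.0 from limma). The difference is small, and the other 4 probe sets of Adamts17 overlapped, with differences of -0.11 to 0.03. Over all genes 4.61% had groups that did not overlap, 2.08% with KO higher and 2.53% with KO lower.

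Of the 16 probe sets of Adamts3, WT replicate 2 was the highest array for 13 and KO replicate 3 for the other 3. The probe set used was at 6.98, 7.61 and 6.62 in WT and at 6.86, 6.98 and 7.25 in KO. That probe set, like Adamts6, Adamts16 and Adamts19, was highest on these 2 arrays. There Adamts6 reached 6.61 and 6.86, Adamts16 6.95 and 6.90, and Adamts19 5.86 and 6.07. Elsewhere Adamts6 lay between 5.65 and 6.28, Adamts16 between 6.01 and 6.58, and Adamts19 between 5.16 and 5.36. Adamts12 was at 9.52, 9.20 and 9.66 in WT and at 9.24, 9.23 and 9.77 in KO. Adamts15 and Adamts8 took other courses: Adamts15 was lowest on the same 2 arrays, at 6.80 and 6.76 against 7.34 to 7.60, and Adamts8 was highest in WT replicate 1 and KO replicate 2, at 6.24 and 5.94 against 5.22 to 5.42.

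No member passed the test across all genes between cavin-3 KO and WT fat. Only genotype was modelled, so the spread between the closest pairs of arrays counted as noise within each genotype. An adjusted p under 0.05 from limma was reached by 0 of 44 members, against 0.00502% of all genes (cavin-3 alone) and 0.00575% of all probe sets. An unadjusted p under 0.05 was reached by 0 of 44 in limma, against 0.838% of all genes. That limma share is below the threshold of 0.05 itself, so 0 of 44 does not show that levels were equal. In the methods' t-test on log2 values 1 member reached it, Adamts17 (adjusted p = 1.0). For that t-test the share of all genes was not counted. Of the members 15 were higher and 29 lower in KO, with a median log2 difference of -0.04, while 49.7% of all genes were lower and their median was 0.00. The median over 22 MMPs was -0.03, over 18 ADAMTS genes -0.05 and over 4 TIMPs 0.02.

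The 95% intervals lay within 2-fold to either side for 40 of 44 members, the exceptions being Mmp3, Mmp7, Mmp11 and Timp4, and for 18868 of all 19937 genes. A difference over 1.5-fold was measured for 1 member, Mmp7, against 0.441% of all genes. For 38 of the 44 the difference between genotypes was smaller than both the range within WT and the range within KO, and for 0 it was larger than both, against 16696 and 350 of all 19937 genes. The median standard error of a member was 0.17 on the log2 scale, against 0.12 for all genes.

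**Figure D3:**
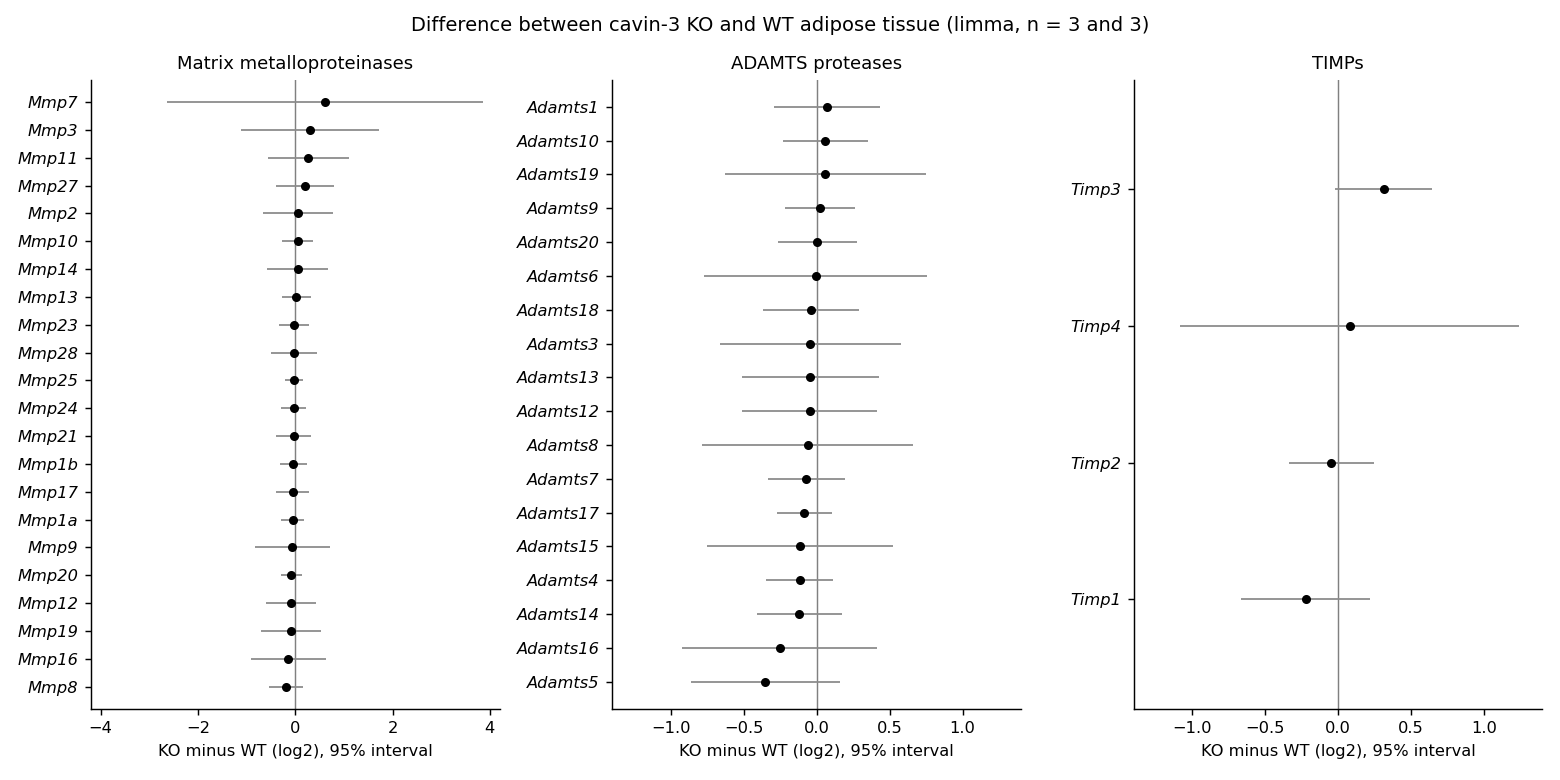
KO minus WT difference on the log2 scale (x axis, wider for MMPs) with its 95% interval from limma for each of the 44 members, 3 arrays per genotype. All intervals cross 0, and those of Mmp7, Mmp3, Mmp11 and Timp4 reach past 2-fold.

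What varied was the array. The 6 arrays spanned over 2-fold for 10 of 44 members (22.7%), against 7.65% of all genes, and the median range was 0.56 for members and 0.38 for all genes on the log2 scale. The 10 were Mmp2, Mmp3, Mmp7, Mmp9, Mmp11, Mmp16, Mmp27, Adamts6, Adamts8 and Timp4. KO replicate 3 was the highest array for 17 members (38.6%, against 23.7% of all genes), and KO replicate 1 the lowest for 13 (29.5%, against 15.0%).

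WT replicate 2 and KO replicate 3 were together the highest arrays for 15 of 44 members (34.1%, against 16.6% of all genes). Of these, 10 passed the yardstick on at least 1 array, among them Mmp2, Mmp3, Mmp19, Adamts3, Adamts6, Adamts16 and Adamts19. These 2 arrays were the lowest for Mmp12, Adamts1, Adamts8, Adamts15 and Timp4. Over the 4 arrays other than these 2, 1 member still spanned over 2-fold, Mmp7, while 4.46% of all genes did. Without WT replicate 1 and KO replicate 2 the number was 7, against 4.41% of all genes. Without WT replicate 3 and KO replicate 1 it was 6, against 5.41%.

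Genes of other tissues differed between the same arrays. WT replicate 2 and KO replicate 3 had means of 8.87 and 8.79 for 10 skeletal muscle markers, against 5.74 to 6.63 elsewhere, and that of 7 brown and beige adipocyte markers was 7.61 and 7.57 against 5.75 to 6.04. For 8 smooth muscle markers the high arrays were WT replicate 1 (mean 10.64) and KO replicate 2 (10.44), with 8.14 to 9.36 on the rest. The mean of 8 mammary epithelium markers was also high there, at 6.60 and 6.44 against 5.20 to 5.72. Other lists did not follow the closest pairs. For 8 urothelium markers the mean was 7.74 in WT replicate 2 against 5.63 to 6.36. For 8 liver markers it was 6.81 in KO replicate 1 and 6.39 in KO replicate 3, against 5.18 to 5.96. The part of other tissues and of sex in the protease values was not tested.

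**Figure D4:**
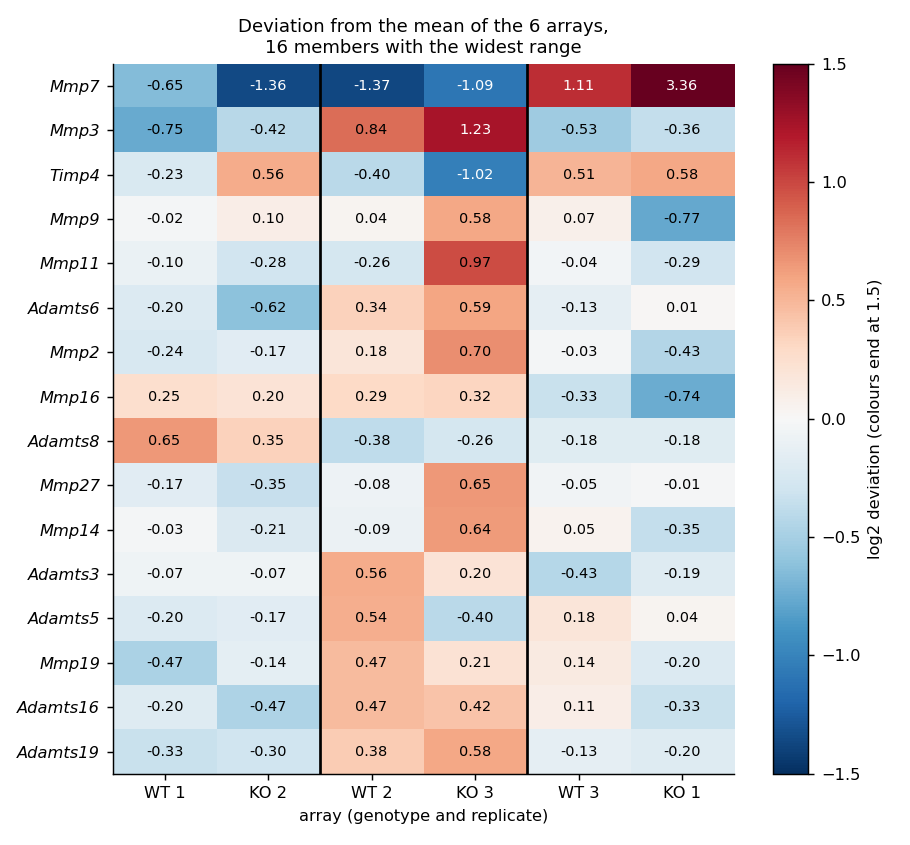
Log2 deviation from the mean of the 6 arrays (colour and number) for the 16 members with the widest range among those above the yardstick on at least 1 array, with arrays (x axis) in the pairs that were closest over all probe sets. Mmp3, Adamts6, Adamts16 and Adamts19 are raised in both WT 2 and KO 3, Mmp7 in WT 3 and KO 1, and Adamts8 in WT 1 and KO 2.

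Among genes that work with these proteases, none passed the adjusted test either. Of 75 measured partner genes, 26 activators and cell surface regulators, 24 other proteases of the matrix and cell surface and 25 matrix substrates, 0 passed an adjusted p of 0.05 and 2 an unadjusted p of 0.05 in limma, 1 higher and 1 lower in KO, against 0.361% and 0.477% of all genes. By the methods' t-test on log2 values 0 and 5 passed, a test for which the share of all genes was not counted. The 2 in limma were Htra3, a secreted serine protease, and Hpse, the heparanase that cuts heparan sulfate.

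Htra3 was at 9.84, 10.01 and 9.92 in WT and at 10.18, 10.25 and 10.11 in KO, 1.20-fold higher with groups that did not overlap (95% interval 1.03 to 1.39, adjusted p = 1.0 from limma). Hpse was at 6.79, 7.05 and 7.05 in WT and at 6.27, 6.60 and 6.82 in KO, or 0.759-fold (0.578 to 0.995). Thbs1, the matricellular thrombospondin-1, was at 8.57, 9.28 and 9.07 in WT and 9.78, 9.08 and 10.11 in KO, 1.60-fold with an interval of 0.967 to 2.66. Plg, the plasminogen gene, was at 5.02, 5.09 and 4.82 in WT and 5.58, 4.95 and 5.60 in KO, or 1.32-fold (0.956 to 1.83). It passed the yardstick only in KO replicates 1 and 3. Acan, the aggrecan gene, was at 1.14-fold (0.990 to 1.32) with all signals below the yardstick. None of these 5, which had the smallest unadjusted p of the partners, passed the adjusted test.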

How the data were processed

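Total RNA of adipose tissue was amplified (Ovation Pico WTA), labelled with biotin and hybridised to 6 Mouse Gene 1.0 ST arrays, with scans processed by the authors in GenePattern. The authors deposited linear intensities per probe set, for which the submitters' processing notes name RMA (background correction, quantile normalization and summary of probes). For the array's annotation, the genome build was not given in the sources used here. Scanner files were not used here, so depth over background was judged by receptor genes, and the number of arrays limits the precision.

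A linear model of log2 intensity on genotype was fitted in limma 3.58.1 (R 4.3.3, moderated by eBayes) to the whole table of 34760 probe sets, and p-values were adjusted over it by Benjamini-Hochberg. The annotation table gives 1 symbol for 21640 probe sets, several for 1321 and no entry for 11799. The probe set with the highest mean was used for each of 19937 genes. All 44 member symbols matched RefSeq. Marker and partner lists, the members and the tests were chosen with earlier results of these data known. Values are given for every TIMP, members without overlap between groups, the members widest in range, those above the yardstick by role, Mmp7, and the 5 partner genes with the smallest p; Mmp8, Mmp10 and Mmp12 were added after their values were seen. Alternatives were the Student t-test that the methods name (on log2 and linear values), other variance models and array weights, quantile normalization, median centring, brighter or single-symbol probe sets, the mean over probe sets, a replicate block and leaving out arrays. The procedure was tested on simulated data.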

Additional observations from a re-analysis of the deposited data

How the results depend on the processing

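The count of members with an adjusted p under 0.05 was 0 in limma and in every alternative, and the median difference stayed between -0.12 and 0.00 without any 1 array. At an unadjusted p under 0.05 there were 0 members with all arrays and 0 to 1 without any 1 array: Adamts5 without WT replicate 1, Timp3 without WT replicate 3 and Mmp14 without KO replicate 3. There was 1 with the methods' t-test on log2 or linear values (Adamts17) and 1 without WT replicate 2 and KO replicate 3 (Adamts12, -0.36). For partner genes that count was 2, with 1 under median centring or quantile normalization and 3 with array weights. It was 5 with the methods' t-test on log2 or linear values and 4 without WT replicate 2 and KO replicate 3. Without any 1 array it was 0 to 4 (0 without WT replicate 3 or KO replicate 1, 1 without WT replicate 2, 4 without KO replicate 2). The share of all genes at an unadjusted p under 0.05 was counted only for limma with all arrays. No fit had a term for the closest pairs of arrays or for sex. The replicate numbers do not pair the arrays (same-numbered deviations correlate at -0.15, -0.37 and -0.09). A replicate block left 0 members called, but cavin-3 (difference -3.57) then had an adjusted p of 0.681. Cavin-3 also missed the threshold with the methods' t-test on log2 (-3.57) and linear values (-3.60), without WT replicate 2 and KO replicate 3 (-3.46), and in 5 of 6 fits without 1 array (-3.68 to -3.35), but not without WT replicate 1 (-3.78).

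Some directions turned, also for Mmp7, Mmp3 and Mmp11, whose differences were among the larger ones. Array weights gave -0.11 for Mmp2 and -0.14 for Mmp14, the t-test on linear values gave 0.040 for Mmp9 (and 1.81, in the same direction as before, for Mmp7), and the fit without WT replicate 2 and KO replicate 3 gave -0.17 for Mmp2, -0.21 for Mmp11 and -0.29 for Mmp14. Without any 1 array the ranges were -0.11 to 0.053 for Timp2 (-0.16 without WT replicate 2 and KO replicate 3), -0.19 to 0.61 for Timp4, -0.27 to 0.30 for Mmp2, -0.24 to 0.80 for Mmp3, -0.92 to 1.44 for Mmp7, -0.36 to 0.31 for Mmp9, -0.15 to 0.48 for Mmp11, -0.26 to 0.24 for Mmp14, -0.081 to 0.20 for Adamts1 and -0.23 to 0.052 for Adamts12. The causes were not tested. Members spanning over 2-fold numbered 10 with all arrays, 4 to 10 without any 1 array (4 without KO replicate 3), and 7, 1 and 6 without the 3 closest pairs; leaving out the pairs other than WT replicate 2 and KO replicate 3 was chosen after seeing the data. With the 99th percentile of receptor genes as the yardstick 22 members passed on every array, and 21 lay above the median of all probe sets.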

Other observations

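Mmp7 had, of all 19937 genes, the widest gap between the lower of WT replicate 3 and KO replicate 1 and the highest of the other 4 arrays, 1.76 on the log2 scale. A gap over 1 was found for 11 genes, which are Mmp7, Sntn, Sectm1b, Dao, Dcdc2a, Cfap44, Rsph4a, B4galnt2, Cdhr5, Gm609 and Rdh16. Sntn, which encodes a protein at the tip of motile cilia, had 5.72 (WT replicate 3) and 8.24 (KO replicate 1) against 4.01 to 4.25. Rsph4a, a radial spoke protein, was at 5.20 and 7.31 against 3.60 to 3.93, and Dao, D-amino acid oxidase, at 6.19 and 8.24 against 4.01 to 4.82. These genes were chosen after their values were seen, no list of genes of a cell type was tested on them, and the source of the transcripts was not tested.

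Among the members, Mmp3 had a gap of 1.19 for WT replicate 2 and KO replicate 3, where 59 genes had a gap over 1, and Adamts8 one of 0.52 for WT replicate 1 and KO replicate 2, where 166 genes did. For WT replicate 1 and KO replicate 2 the widest gaps were those of Serpina1f (11.78 and 11.99 against 4.24 to 5.46) and Spink8 (11.89 and 11.49 against 4.12 to 5.31), also chosen after their values were seen. The 11 measured markers of the list for epididymis had means of 4.97 and 4.79 on these 2 arrays against 4.29 to 4.37, and 1 of the 11 was above the yardstick on every array. Adam7, a disintegrin-metalloprotease on that list, was at 10.33 and 9.19 against 3.67 to 4.51, while only 3 of the 11 peaked in WT replicate 1 and 0 in KO replicate 2.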
